A study of Mus musculus with 26 samples.

Results

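Collagens are the triple-helical proteins that give tissue its fibrils, sheets and filaments. The collagen genes were taken here as every gene whose symbol is Col, a type number, the letter a and a chain number, as in Col1a1. This rule found 44 genes of 19638 genes listed in at least 1 library, and it used no measured value. Of the 44 genes, 11 encode chains of fibrillar collagens, 6 encode chains of type IV collagen, the sheet-forming collagen of basement membranes, and 27 encode chains of the other types.

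RNA-seq counts were obtained from 26 mouse liver libraries in 8 groups, all of strain C57BL/6 by label. Young mice, 2 to 3 months old, gave 5 groups. Wild type liver (WT) had 3 libraries. Liver of Alb-Cre:Hdac3-/- mice was taken at 0 (0d, 3 libraries), 7 (7d, 4), 21 (21d, 4) and 50 (50d, 3) days after successive PH (sPH), where PH usually stands for partial hepatectomy, the removal of part of the liver. The older tissues were Alb-Cre:Hdac3-/- tumors (tumor, 3 libraries) and adjacent tissue without tumor (adjacent, 3), both at 10 months, and tumors of Fah-/- recipient mice (recipient tumor, 3, marked Fah-/- tumor in the plots) at 12 months. Alb-Cre expresses the recombinase from the albumin promoter, which is active in hepatocytes, so the deletion of the histone deacetylase gene Hdac3 is directed at hepatocytes and not at the cells that are the usual source of fibrillar collagen. Fah-/- mice lack a tyrosine-degrading enzyme and serve as hosts for transplanted hepatocytes, and a recipient tumor holds tissue of the host as well. The labels do not say whether WT mice had sPH, what stage of the operations 0 days marks, or whether replicates are separate animals. Libraries differed in beta-globin haplotype within 0d and 7d and in Y-linked transcripts within tumor and adjacent tissue, so each of those groups draws on more than 1 animal. In the other groups p-values may measure technical spread alone.

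In liver, type I and type III fibrils are laid down mainly by hepatic stellate cells and portal fibroblasts, and these cells make more of them in scarring. Type IV collagen, laminins and nidogens form the basement membrane under bile ducts and vessels. Type XVIII collagen sits in basement membranes as a proteoglycan, its C-terminal fragment is endostatin, and in liver hepatocytes are a known source of it. In bulk tissue, fewer cells of a type and less RNA per cell cannot be told apart.

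To show the start regions of the main fibrillar genes and of the type IV pair, 3 stretches are printed, from RefSeq and build GRCm38.p6. The first 2 are the 250 bases before the annotated start of Col1a2 (chr6:4505368-4505617, plus strand), which encodes the second chain of type I collagen, and of Col3a1 (chr1:45311288-45311537, plus strand), which encodes type III collagen. Capitals mark matches to CCAAT, to TATAAA and to GGGCGG, searched on both strands. The last is the 22 bases from the start base used for Col4a2 (plus strand) to that used for Col4a1 (minus strand), both included. It is written on the plus strand (chr8:11312805-11312826). This head-to-head pair encodes the common type IV chains, and the annotated genes overlap beyond these bases, to 11312889.
Col1a2: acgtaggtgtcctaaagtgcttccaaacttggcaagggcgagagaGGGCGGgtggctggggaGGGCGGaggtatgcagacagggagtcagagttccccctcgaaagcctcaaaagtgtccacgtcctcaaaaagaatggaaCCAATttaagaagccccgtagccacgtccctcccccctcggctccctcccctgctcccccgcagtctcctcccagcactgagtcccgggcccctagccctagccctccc
Col3a1: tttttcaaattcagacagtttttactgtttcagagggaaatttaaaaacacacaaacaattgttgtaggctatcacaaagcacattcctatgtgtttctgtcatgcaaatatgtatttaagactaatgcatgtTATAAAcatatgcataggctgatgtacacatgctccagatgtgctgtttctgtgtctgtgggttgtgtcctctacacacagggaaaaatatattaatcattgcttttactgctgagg
Col4a1 and Col4a2: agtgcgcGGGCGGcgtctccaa
In Col1a2, counting back from base -1 just before the start, CCAAT lay at -109 to -105 and GGGCGG at -205 to -200 and -188 to -183. In Col3a1, TATAAA lay at -117 to -112. RefSeq windows of 300 bases (250 before and 50 after the start) were at hand for 35 of the 44 genes, in 38 windows. GGGCGG occurred in 23 of these 38 windows (60.5%) and in 35.7% of all 32851 windows. CCAAT occurred in 13 (34.2%, against 37.4%), TATAAA in 5 (13.2%, against 13.6%) and TGANTCA in 1 (2.63%, against 7.81%), that of Col6a1. These are matches of letters over all collagen windows, whether or not the gene changed, and do not show that a factor binds.

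Levels below are CPM, counts scaled to library size after TMM normalisation, with young and older libraries scaled separately, so that levels are compared within each set. Library totals ran from 8602526 to 11094627 counts. Of the 44 genes, 27 reached a mean of 1 CPM in at least 1 group, and 21 were listed in all 26 libraries. The other 17 genes reached at most 1.71 CPM (Col8a2) and 16 counts in any library. They were Col2a1, Col11a1 and Col24a1 of the fibrillar class, and Col6a4, Col7a1, Col8a2, Col9a1, Col9a2, Col9a3, Col10a1, Col17a1, Col19a1, Col22a1, Col23a1, Col25a1, Col26a1 and Col28a1 of the others. The low-count filter passed the same 27 genes in young liver (8 fibrillar, 6 of type IV, 13 other) and 24 of them in older tissue, where Col4a5, Col4a6 and Col6a6 did not pass. A gene high in 1 group can pass through that group alone, so counts below are of tested genes and not of all 44. Col4a6 did so in young liver, with 15, 10 and 16 counts in 0d and at most 9 in any other library.

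Several facts of the series touch these results. Hdac3 was not lower in libraries labelled Hdac3-/-, at 32.1 to 37.1 CPM in WT and 44.6 to 50.6 in 0d, and counts over the whole gene do not show the loss of single exons. Fah, deleted by label in the recipients, stood at 304 to 493 CPM in recipient tumors. Y-linked transcripts (Ddx3y, Eif2s3y, Kdm5d and Uty summed) were at most 0.266 CPM in WT and 0d and 41.5 to 94.4 CPM in 7d, 21d and 50d. Adult beta-globin reads came to 99.6 to 100% from Hbb-bs and Hbb-bt, the genes of a single haplotype, in WT libraries. In 0d these genes gave 52.7, 99.6 and 53.9%, in 7d replicate 4 they gave 48.1%, and in the remaining later young libraries at most 2.81%. In the older libraries they gave at most 1.2%. The libraries thus differ in haplotype although all carry the same strain label. The comparison of 0d with WT also crosses the haplotype difference, through 0d replicates 1 and 3, and its part was not tested. Day after sPH cannot be told apart from the Y-linked and haplotype differences in the comparisons of later days with 0d. The comparisons of 21d and 50d with 7d use libraries that all hold Y-linked transcripts. Among older libraries, tumor replicate 3 and adjacent replicate 2 held Y-linked transcripts (39.3 and 26.1 CPM).

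Collagen transcripts were higher in 0d than in WT liver. Of 27 tested genes, 15 rose and 1 fell by edgeR's quasi-likelihood test at an adjusted p of 0.05, while 18.3% of all 13617 genes tested rose and 19% fell. Among the fibrillar genes 5 of 8 rose, among those of type IV 3 of 6, and among the others 7 of 13 rose and 1 fell. The type IV count includes Col4a6, which passed the filter through 0d alone. The median log2 fold change was 1.83 over the fibrillar genes, 1.21 over type IV and 1.18 over the others, against 0.00 over all genes tested.

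Type I, III and V collagen, the main fibril formers of liver, rose in 0d. Col1a1 (gene ID 12842, chromosome 11, 94936224 to 94953042, GRCm38.p6), the first chain of type I collagen, was 45.6, 25.1 and 28.3 CPM in WT and 275, 129 and 184 CPM in 0d (log2 fold change 2.57 ± 0.77 SE, adjusted p = 0.0156). Each 0d library was above each WT library, and 0d replicate 2 was the lowest of the 3. Col1a2 (chromosome 6), whose promoter is shown above, was 36.6, 31.3 and 31.0 CPM in WT and 191, 93.1 and 151 CPM in 0d (2.14 ± 0.65, adjusted p = 0.018). Col3a1 was 59.4, 61.5 and 41.2 CPM in WT and 344, 197 and 314 CPM in 0d (2.40 ± 0.72, adjusted p = 0.0161). The 3 genes shared the order of the 0d libraries at the low end, with replicate 2 lowest.

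Type V collagen is the minor chain set inside type I fibrils that sets their width. Col5a2 was 4.84, 4.43 and 5.58 CPM in WT and 34.8, 27.8 and 35.6 CPM in 0d, with the smallest adjusted p of the collagens (2.72 ± 0.36, adjusted p = 9.38e-05). Its 0d libraries lay close together. Col5a1 was 12.0, 21.1 and 14.2 CPM in WT and 52.3, 37.7 and 46.7 CPM in 0d (1.53 ± 0.48, adjusted p = 0.0203). Col5a3, the third type V chain, was 5.64, 7.39 and 10.6 CPM in WT and 8.99, 12.1 and 14.9 CPM in 0d, and its groups overlapped (0.60 ± 0.42, adjusted p = 0.269). Col11a2 (0.35 ± 0.41, adjusted p = 0.53) and Col27a1 (-0.44 ± 0.37, adjusted p = 0.364) did not pass the test either, at 1.99 to 3.19 and 10.1 to 12.3 CPM in 0d.

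**Figure D1:**
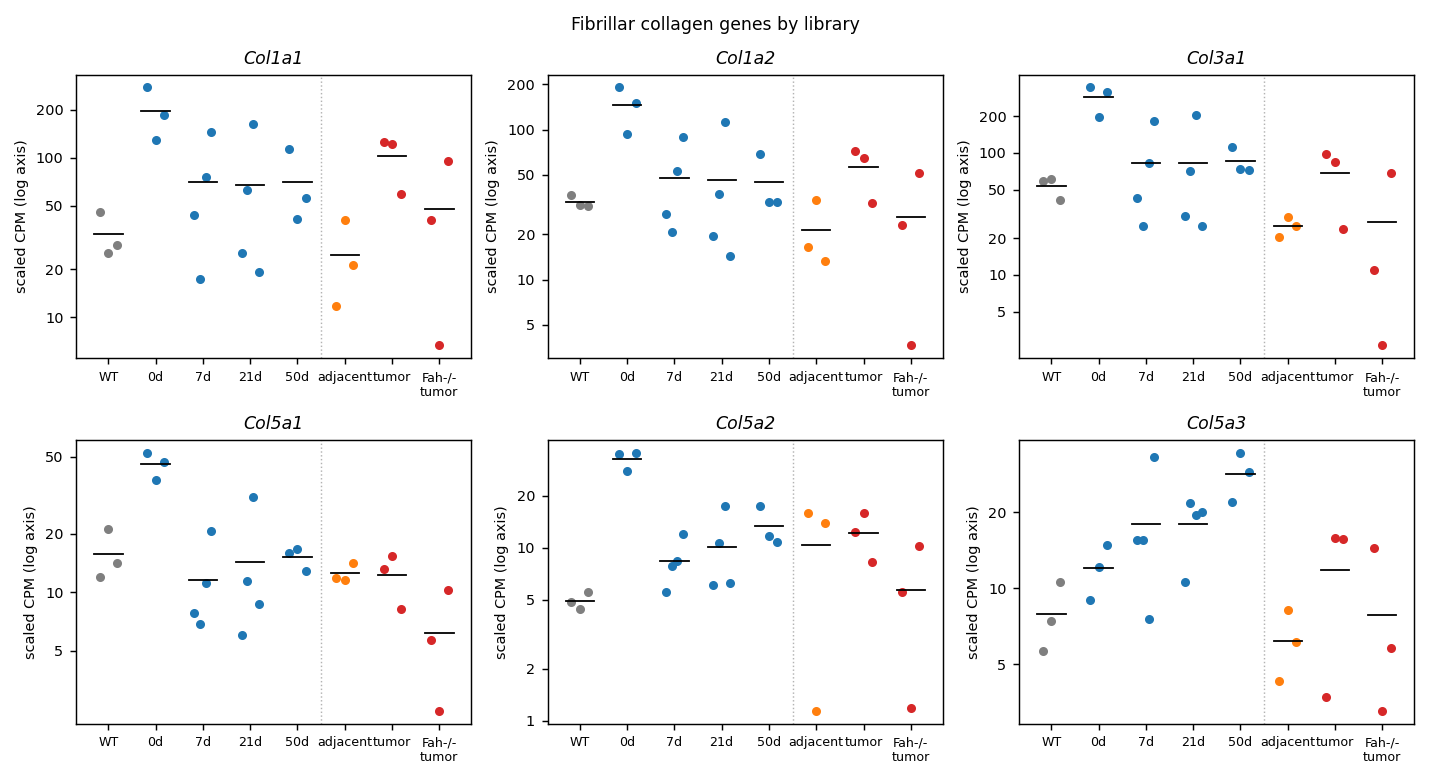
Scaled CPM (log axis) of 6 fibrillar collagen genes in each of the 26 libraries by group. Points are libraries, bars are group means, and the dotted line parts the young from the older libraries, which were scaled separately. The 0d libraries of Col1a1, at 129 to 275 CPM, lie above the WT libraries at 25.1 to 45.6, and 7d and 21d each spread over a wide range.

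In the type IV class the paired genes Col4a1 and Col4a2 rose. Col4a1 (gene ID 12826, chromosome 8) was 40.0, 63.0 and 59.6 CPM in WT and 235, 187 and 245 CPM in 0d (2.04 ± 0.54, adjusted p = 0.0079). Col4a2 (gene ID 12827, chromosome 8) was 35.2, 53.8 and 40.8 CPM in WT and 146, 99.5 and 150 CPM in 0d (1.61 ± 0.40, adjusted p = 0.00539). Neither gene overlapped between the groups. Their annotated transcripts overlap at the shared start, and the sources used here do not say whether counting used strand, so reads from that overlap cannot be assigned. The labels name a TruSeq RNA kit, and no strand setting.

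Col4a6, a chain of restricted basement membranes, had 0 counts in each WT library and 15, 10 and 16 counts in 0d. Summed over the group, that is 41 against 0 counts and at least 10.9-fold higher with a floor of 3 counts over the group, a bound that covers counting error only. Col4a5, its head-to-head neighbor on chromosome X with a start 1342 bases away, was 2.88, 2.53 and 2.36 CPM in WT and 5.18, 2.92 and 5.66 CPM in 0d (0.82 ± 0.46, adjusted p = 0.164). Col4a3 and Col4a4, the chains of the kidney filter, did not pass the test, at 0.443 to 2.96 and 0.266 to 1.57 CPM in 0d. Col4a3 and Col4a4 also overlap each other in the annotation.

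Among the other types, type VI, the beaded filament collagen around cells, was split. Col6a3 was 9.56, 10.2 and 8.58 CPM in WT and 70.9, 37.2 and 44.7 CPM in 0d (2.43 ± 0.62, adjusted p = 0.00697). Col6a5 was 0.115, 0.317 and 0.107 CPM in WT, or 1 to 3 counts a library, and 10.5, 5.75 and 6.62 CPM in 0d (5.30 ± 1.03, adjusted p = 0.00114). Both were higher in each 0d library than in any WT library. Col6a6 rose from 0.23, 0.317 and 0 CPM to 0.95, 0.708 and 0.872 CPM (2.14 ± 0.65, adjusted p = 0.0171). Col6a1 and Col6a2, the chains that pair with Col6a3, had separate groups but missed the threshold, at 24.1 to 39.8 against 12.1 to 20.2 CPM (adjusted p = 0.153) and 15.7 to 32.9 against 9.71 to 13 CPM (adjusted p = 0.0818).

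Collagens that decorate fibrils or link them to other matrix rose in part. Col12a1, on the surface of type I fibrils, was 1.27, 3.06 and 1.07 CPM in WT and 12.1, 5.40 and 4.79 CPM in 0d (2.03 ± 0.44, adjusted p = 0.00253). Col16a1 rose from 3.54 to 5.91 CPM to 10.7 to 14.5 CPM (1.54 ± 0.50, adjusted p = 0.0242). Col8a1, a short-chain network collagen of vessels, rose from 0.23, 0.422 and 0.644 CPM to 1.73, 1.77 and 2.00 CPM (2.04 ± 0.39, adjusted p = 0.00111). Col14a1, another collagen of the fibril surface, was 32.9, 62.0 and 60.1 CPM in WT and 116, 87.0 and 96.5 CPM in 0d, and although the groups did not overlap it missed the threshold (0.95 ± 0.48, adjusted p = 0.132). Col13a1 and Col20a1 overlapped between the groups.

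The multiplexins, type XV and type XVIII, moved in opposite directions. Col15a1, a basement membrane proteoglycan, was 15.3, 18.9 and 8.69 CPM in WT and 39.1, 25.8 and 32.0 CPM in 0d (1.18 ± 0.33, adjusted p = 0.0106). Col18a1 (gene ID 12822, chromosome 10, 77052178 to 77166530) was the 1 collagen gene that fell, from 1300, 1306 and 1586 CPM to 606, 642 and 675 CPM (-1.12 ± 0.32, adjusted p = 0.0117). Summed markers of hepatocytes (8 genes, such as Alb and Ttr) moved the same way, at 153553 to 162513 CPM in WT and 43726 to 53717 in 0d. This sum follows its most abundant transcripts and does not give the direction of each gene. The part of these markers in the result was not tested.

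**Figure D2:**
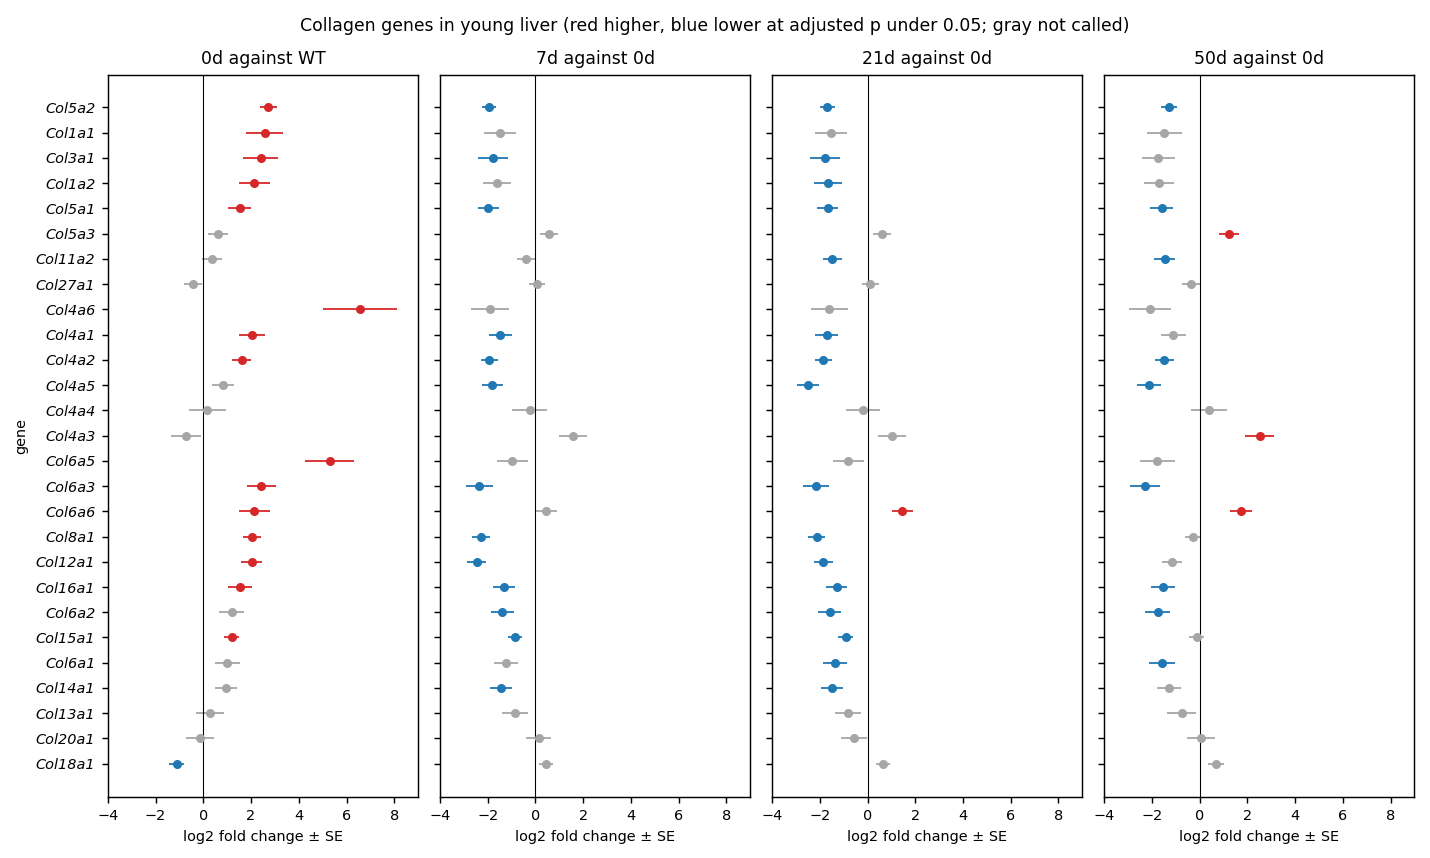
Log2 fold changes with SE (horizontal bars) of the 27 tested collagen genes in 4 comparisons of young liver, ordered by class and by the change of 0d against WT. Points are red for higher and blue for lower at an adjusted p of 0.05, and 15 genes are red and 1 is blue in the panel of 0d against WT. The point of Col4a6 in that panel is a fitted value against a group with 0 counts and is no measured size.

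Without the low-count filter Col22a1 was also called higher in 0d (0, 1 and 0 counts in WT, 8, 1 and 14 in 0d). In that setting 2 collagens were lower in 0d, where 13.2% of all genes were, and 2 were higher in 21d than in 0d, where 11.9% of all genes were. Scaling by library totals in place of TMM left 15 collagen genes higher and 1 lower in 0d, while it moved the median of all genes to 0.30 and the share of higher calls among all called genes from 49 to 69.7%. With library totals 3574 of all 13617 genes were called higher and 1551 lower, against 2490 and 2592 with TMM. Leaving out WT replicate 3 left 8 genes higher. Without it the calls of Col1a1, Col1a2, Col3a1, Col5a1, Col6a6, Col15a1 and Col16a1 were lost, at adjusted p from 0.0513 (Col15a1) to 0.0791 (Col16a1). The calls of Col1a1 (0.0551), Col1a2 (0.0624), Col5a1 (0.0632) and Col16a1 (0.0582) also ended without 0d replicate 1. Those of Col5a1 (0.0798) and Col16a1 (0.0817) ended without WT replicate 1, that of Col1a1 (0.0515) without WT replicate 2, and that of Col16a1 (0.0687) without 0d replicate 3. The calls of 9 genes held without any 1 of the 17 young libraries. These were Col5a2, Col4a1, Col4a2, Col4a6, Col6a3, Col6a5, Col8a1, Col12a1 and Col18a1, with Col4a6 refitted in 16 of the 17 cases. Because Col4a6 passed the filter through 0d alone, its call gives no separate support. Without WT replicate 2 the log2 fold change rose to 2.65 for Col12a1, 5.95 for Col6a5 and 2.78 for Col6a6, and without WT replicate 3 that of Col6a6 was 1.57.

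Markers of other liver cells also differed between WT and 0d, where 18.3% of all genes were called higher and 19% lower. Summed over 11 genes, hepatic stellate markers were at 109 to 143 CPM in WT and 227 to 286 in 0d, with 6 of 11 called higher. Portal fibroblast markers (8 genes) were at 22.3 to 31.1 and 39.0 to 79.2 CPM, with 3 of 7 tested called higher. Cholangiocyte markers (8 genes), of bile duct cells, were at 63.9 to 77.4 and 437 to 698 CPM, with 7 of 8 called higher. Markers of sinusoidal endothelium (8 genes) were at 186 to 320 and 206 to 277 CPM, with 0 called by edgeR and 2 at an unadjusted p under 0.05, as were 47.5% of all genes. Those of other endothelium (6 genes) were at 115 to 214 and 212 to 266 CPM with 3 called higher. Macrophage markers (8 genes) were at 194 to 518 and 472 to 539 CPM with 4 called higher and 2 lower. None of these lists had a member at 0 throughout WT or 0d, and their part in the collagen result was not tested.

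Genes that make, break down and bind collagen were also described by fixed lists. Of the synthesis and processing genes 9 of 28 tested rose in 0d and 3 fell, with a median log2 fold change of 0.61, beside 18.3% higher and 19% lower over all genes, which is the background for each list here. Lox, the cross-linking oxidase, was 4.39 ± 1.32 against 0.589 ± 0.249 CPM (SD, n = 3 each), and Bmp1, the protease that cuts the C-propeptide of fibrillar procollagen, was 38.5 ± 4.21 against 177 ± 38.2 CPM. Of the breakdown genes and their inhibitors 10 of 14 rose and 1 fell, with a median of 2.09. These include Mmp12, macrophage elastase, at 55.6 ± 18.1 against 0.362 ± 0.263 CPM, Mmp13, a collagenase, at 10.7 ± 4.55 against 0.18 ± 0.119 CPM, and the inhibitor Timp1 at 2.24 ± 0.713 against 0.109 ± 0.00513 CPM. Of 7 receptors 3 rose, among them Ddr1, a collagen-binding kinase of epithelium, at 70.2 ± 7.45 against 4.36 ± 2.69 CPM. Of 15 other basement membrane genes 9 rose and 1 fell, with Nid1, which links laminin to type IV collagen, at 467 ± 114 against 19.3 ± 2.19 CPM.

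After 0d, most collagens that were tested lay lower. Each of the 3 comparisons below uses the same 0d libraries, which also enter 0d against WT, so a high value in 0d raises one and lowers the others. In 7d, 13 of 27 tested genes fell and 0 rose against 0d (11.9% of all genes fell and 14.7% rose). In 21d, 16 fell and 1 rose (14% and 17.6% of all genes). In 50d, 9 fell and 3 rose (11.4% and 14.4% of all genes). By DESeq2, 14 fell and 1 rose, Col4a3, in 7d (12.8% and 16.9% of all genes), and 18 had an unadjusted p under 0.05 by edgeR, as had 39.4% of all genes. The median log2 fold change over the tested collagens was -1.40, -1.49 and -1.29 at 7, 21 and 50 days, against 0.04, 0.01 and 0.01 over all genes.

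The fibrillar genes varied widely within 7d and 21d. Col1a1 was 43.7, 17.3, 75.3 and 144 CPM in 7d, 25.2, 62.3, 162 and 19.1 in 21d, and 113, 41.4 and 56.1 in 50d. Some libraries of 7d and 21d lay above the lowest 0d library, at 129 CPM, and others lay below all WT libraries. Col1a1 passed the test at none of the 3 times (adjusted p = 0.112, 0.0873 and 0.146, and -1.54 ± 0.67 on the log2 scale at 21 days). Col3a1 was 42.5, 25, 83 and 181 CPM in 7d, 30.2, 71.6, 204 and 25.3 in 21d, and 112, 74.2 and 73.1 in 50d. It fell in 7d (-1.78 ± 0.64, adjusted p = 0.0494) and 21d (-1.79 ± 0.64, adjusted p = 0.0435), but not past the threshold in 50d (adjusted p = 0.0795). Col1a2 fell in 21d alone by this threshold (-1.66 ± 0.59, adjusted p = 0.0413; 0.0533 in 7d and 0.0623 in 50d).

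The same libraries stood high for many collagens. Of the 27 genes, 7d replicate 4 was the highest of its 4 libraries in 18 and the lowest in 0. In 21d, replicate 3 was the highest in 18 and the lowest in 2. In 0d, replicate 2 was the lowest of 3 in 21. Of the later young libraries 7d replicate 4 was the 1 with mixed beta-globin haplotype (48.1%), and 0d replicate 2 was the 1 library of 0d without it (99.6%). The part of this haplotype in the collagen levels was not tested. Summed stellate markers were 74.2, 73.6, 115 and 169 CPM in 7d and 62.2, 92.8, 184 and 68.2 in 21d, highest in the same libraries. Portal fibroblast and sinusoidal markers were also highest there, at 58.3 and 263 CPM in 7d replicate 4 and 53.9 and 236 in 21d replicate 3. Hepatocyte markers were lowest there, at 37484 and 59096 CPM. In 7d, cholangiocyte, macrophage and other endothelial markers were highest in replicate 3 instead, at 513, 1499 and 207 CPM. The part of these cells in the collagen levels was not tested. Against 0d, 8 of 11 stellate markers were lower in 7d, 8 in 21d and 3 in 50d, beside 11.9%, 14% and 11.4% of all genes. Of 7 portal fibroblast markers tested, 1, 2 and 0 were lower at these times, and of 8 cholangiocyte markers 3, 5 and 1 were. Lower markers were thus not limited to stellate cells and portal fibroblasts.

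Type V chains diverged over time. Col5a2 was 5.58, 7.82, 8.36 and 12.0 CPM in 7d, 6.14, 10.7, 17.4 and 6.25 in 21d and 17.5, 11.8 and 10.8 in 50d, against 27.8 to 35.6 in 0d. It fell at each time (-1.95 ± 0.31, -1.69 ± 0.31 and -1.29 ± 0.34, adjusted p = 0.0008, 0.00124 and 0.0111). Col5a1 fell at each time as well (-1.97 ± 0.44, -1.67 ± 0.44 and -1.59 ± 0.48). Col5a3, which forms a heterotrimer with both, was 22.0, 34.5 and 28.9 CPM in 50d against 8.99, 12.1 and 14.9 in 0d, a rise (1.24 ± 0.41, adjusted p = 0.034), and its groups did not overlap. In 7d and 21d it was 7.56 to 33.2 and 10.6 to 21.8 CPM and did not pass the test. Col11a2 fell in 21d (-1.47 ± 0.41, adjusted p = 0.0132) and 50d (-1.46 ± 0.44, adjusted p = 0.0237) from a level of 1.99 to 3.19 CPM, and Col27a1 passed the test at none of these times.

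In type IV, Col4a2 fell at each time, and edgeR called Col4a3 higher than in 0d in 50d alone. Col4a2 was 31.9, 17.8, 37.3 and 49.8 CPM in 7d, 19.4, 30.2, 69.5 and 26.8 in 21d and 48.8, 48.8 and 44.3 in 50d, all below the lowest 0d library at 99.5 (-1.94 ± 0.36, -1.85 ± 0.36 and -1.48 ± 0.39, adjusted p = 0.00194, 0.00177 and 0.0128). Col4a1 was 39.9, 27.1, 144 and 107 CPM in 7d, 38.4, 55.5, 134 and 41.7 in 21d and 113, 102 and 94.1 in 50d. It fell in 7d (adjusted p = 0.0323) and 21d (adjusted p = 0.014) and missed the threshold in 50d (-1.11 ± 0.52, adjusted p = 0.124). Col4a3 was 1.21, 0.443 and 2.96 CPM in 0d and 5.28, 14.0 and 7.27 CPM in 50d (2.51 ± 0.60, adjusted p = 0.00701; 3.40 without 0d replicate 3). In 7d it was 7.13, 2.73, 3.22 and 5.25 CPM and just missed the threshold (1.57 ± 0.57, adjusted p = 0.0533), while DESeq2 called it there. It was 2.44, 4.77, 3.77 and 1.56 CPM in 21d and 2.42, 4.01 and 1.29 CPM in WT, so a late onset is not shown. Col4a4, the overlapping partner of Col4a3, stayed at 0.843 to 1.82 CPM in 50d and did not pass the test. Col4a5 fell at each time, to 0.745 to 1.94, 0.12 to 1.52 and 0.843 to 1.34 CPM (-1.81 ± 0.44, -2.50 ± 0.46 and -2.13 ± 0.49). Col4a6 did not pass the test at any of the 3 times (adjusted p = 0.0897, 0.123 and 0.0942), at up to 9 counts a library in these groups.

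**Figure D3:**
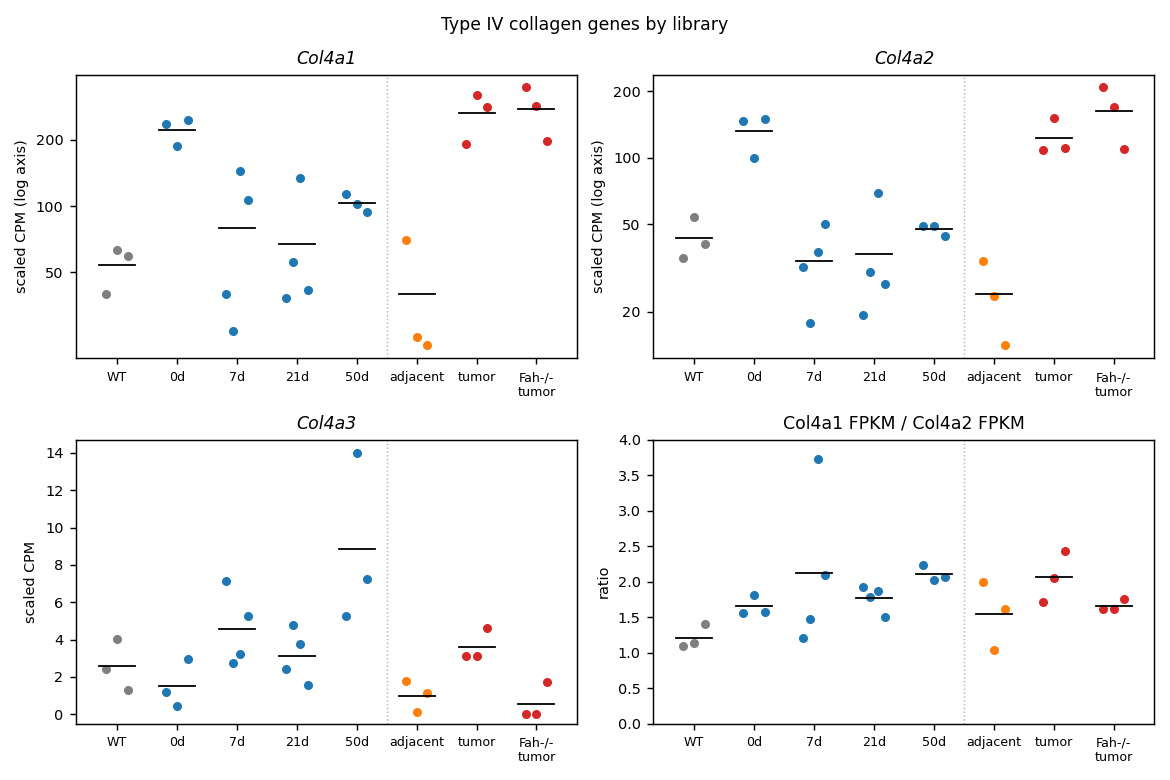
Scaled CPM of Col4a1 and Col4a2 (log axes) and Col4a3 (linear axis), and the ratio of the authors' FPKM of Col4a1 to that of Col4a2, in each library by group. Points are libraries, bars are group means and the dotted line parts the separately scaled young and older libraries. Col4a3 reaches 14.0 CPM in 1 of the 50d libraries, and the Col4a1 to Col4a2 ratio is 3.73 in 7d replicate 3.

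Of the other types, Col6a3 and Col16a1 fell at each time, and Col6a6 rose. Col6a3 was 6.30, 4.47, 8.16 and 20.8 CPM in 7d, 4.87, 9.14, 27.6 and 3.97 in 21d and 9.30, 14.5 and 7.49 in 50d (-2.35 ± 0.56, -2.16 ± 0.56 and -2.29 ± 0.62). Without 7d replicate 4 its change in 7d was -2.98, and without 21d replicate 3 its change in 21d was -3.08. Col16a1, a fibril-associated collagen, changed by -1.32 ± 0.45, -1.30 ± 0.45 and -1.54 ± 0.50 (adjusted p = 0.0404, 0.0384 and 0.0321). Col6a2 fell at each time (adjusted p = 0.0406, 0.0206 and 0.023) and Col6a1 in 21d (adjusted p = 0.0466) and 50d (adjusted p = 0.0475). Col6a6 was 2.12, 2.44, 1.62 and 3.25 CPM in 21d and 1.92, 3.64 and 2.95 in 50d against 0.708 to 0.95 in 0d (1.46 ± 0.45 and 1.73 ± 0.47, adjusted p = 0.0222 and 0.0138).

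Col8a1 fell in 7d and 21d and did not pass the test in 50d (adjusted p = 0.569). It was 0.207, 0.372, 0.302 and 0.583 CPM in 7d, 0.424, 0.406, 0.431 and 0.361 in 21d and 1.82, 1.42 and 1.27 in 50d. The 50d libraries lay above all 7d libraries, and Col8a1 was the 1 collagen gene called between 50d and 7d (1.99 ± 0.37, adjusted p = 0.0254), where 0.286% of all genes rose and 0.154% fell. This call ended without any 1 of 8 libraries, namely 0d replicates 1 and 3, 7d replicates 1, 2 and 3 and each 50d library (adjusted p from 0.0506 to 0.155). Col12a1 (adjusted p = 0.249) and Col6a6 (adjusted p = 0.268) also had separate groups in that comparison and did not pass. Between 21d and 7d, 0 collagen genes and 0% of all genes were called by edgeR, with 2 collagens at an unadjusted p under 0.05 (Col11a2 and Col6a6) against 7.72% of all genes, and DESeq2 called 0 collagens (0.118% of all genes higher and 0.316% lower).

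Col12a1 (-2.47 ± 0.41 and -1.85 ± 0.40), Col14a1 (-1.45 ± 0.45 and -1.49 ± 0.45) and Col15a1 (-0.85 ± 0.30 and -0.92 ± 0.30) fell in 7d and 21d and did not pass in 50d (adjusted p = 0.0562, 0.0617 and 0.804). In 50d Col15a1 was 26, 38.4 and 24.6 CPM, overlapping 0d at 25.8 to 39.1. Col18a1 was 1308, 1033, 533 and 615 CPM in 7d, 1039, 981, 678 and 1305 in 21d and 985, 1313 and 791 in 50d, and it passed the test at none of these times (adjusted p = 0.277, 0.107 and 0.119). In 7d, the 2 libraries with the lowest Col18a1, replicates 3 and 4, had the highest Col1a1. Col6a5 (adjusted p = 0.272, 0.356 and 0.0834), Col13a1 and Col20a1 did not pass at any time.

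Many calls lay near the threshold and ended when 1 library was left out. In 7d, 7 of 13 calls held without any 1 of 17 libraries, in 21d 8 of 17 and in 50d 2 of 12, those of Col4a3 and Col4a5. The count of lower genes dropped to 7 in 7d without 0d replicate 1, 0d replicate 3, 7d replicate 1 or 7d replicate 2, and to 8 without 0d replicate 2. It dropped to 9 or 10 in 21d without 0d replicate 1 or 3 or without 21d replicate 1, 2 or 4. In 50d it was 4 without 0d replicate 1, 5 without 0d replicate 3, 3 without 50d replicate 1 and 1 without 50d replicate 3. The call of Col3a1 ended in 13 of 17 refits in 7d (adjusted p from 0.0558 to 0.145, log2 fold changes from -1.96 to -1.48) and in 11 in 21d (0.0502 to 0.125, from -1.98 to -1.49), and that of Col6a1 in 12 in 21d (0.0505 to 0.144, from -1.56 to -1.10) and in 11 in 50d (0.0502 to 0.136, from -1.74 to -1.40). That of Col1a2 in 21d ended in 6 (0.05 to 0.143) and that of Col4a1 in 7d in 5, without any 0d library or 7d replicate 1 or 2 (0.0597 to 0.0965). That of Col5a3 in 50d ended without 0d replicate 1 or 2 or 50d replicate 2 or 3 (0.0795 to 0.127), and that of Col6a6 in 21d without any 0d library or 21d replicate 4 (0.0621 to 0.0798) and in 50d without 0d replicate 2 (0.0527). Without 21d replicate 3 the change of Col1a2 in 21d was -2.60, of Col3a1 -2.75, of Col5a1 -2.39, of Col14a1 -2.19, of Col6a1 -2.04 and of Col6a2 -2.23, and without 7d replicate 4 that of Col3a1 in 7d was -2.48. With library totals in place of TMM 8 genes fell in 7d, where the calls of Col3a1, Col4a1, Col6a2, Col15a1 and Col16a1 ended (adjusted p = 0.0721, 0.0504, 0.0587, 0.0554 and 0.0648), and the calls of Col5a3 (0.0995) and Col6a1 (0.0517) ended in 50d. With library totals 1972 of all 13617 genes fell in 7d, against 1622 with TMM. The median of all genes then was -0.13, -0.21 and -0.17 at the 3 times, and the share of higher calls among all called genes went from 55.3 to 38%, from 55.6 to 35.1% and from 55.7 to 39.2%.

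Other calls were lost as follows. Those of Col15a1 and Col16a1 in 7d ended in 10 of 17 refits each (adjusted p from 0.051 to 0.19 and from 0.0503 to 0.119), of Col6a2 in 8 (0.051 to 0.158) and of Col14a1 in 5 (0.0516 to 0.0959). In 21d those of Col16a1 ended in 6 (0.0615 to 0.108), of Col15a1 in 5 (0.055 to 0.12), of Col14a1 and Col6a2 in 4 each (0.0558 to 0.0712 and 0.0604 to 0.0877) and of Col11a2 in 1, without 0d replicate 2 (0.0636). In 50d those of Col16a1 ended in 6 (0.0532 to 0.103), of Col6a2 in 5 (0.0528 to 0.0861), of Col5a1 and Col11a2 in 4 each (0.0576 to 0.0911 and 0.0518 to 0.102) and of Col6a3 in 3 (0.0563 to 0.0652). Those of Col4a2 (0.0533) and Col5a2 (0.0578) in 50d ended without 50d replicate 3.

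The related lists followed 0d with their own counts. Of the synthesis and processing genes, 7 fell and 2 rose in 7d, 8 fell and 2 rose in 21d, and 6 fell and 4 rose in 50d, of 28 tested. Over all genes 11.9% fell and 14.7% rose in 7d, 14% and 17.6% in 21d, and 11.4% and 14.4% in 50d. Lox fell to 0.577 ± 0.386 CPM in 7d (SD, n = 4) and Bmp1 rose to 118 ± 40.0. Of the other basement membrane genes, 9 of 15 fell at each time, and 1, 1 and 2 rose. Nid1 stood at 58.2 ± 51.7, 43.8 ± 53.9 and 45.6 ± 16.2 CPM. Of 14 breakdown genes 3, 5 and 5 fell and 3, 0 and 1 rose, and of 7 receptors 1, 3 and 1 fell, including Itga1, the collagen-binding integrin chain of stellate and vessel cells, at each time. Between 50d and 7d, Loxl4, a cross-linking oxidase, rose (26.5 ± 3.42 against 1.98 ± 1.25 CPM) and so did Nid2, the second nidogen (14.0 ± 2.70 against 5.05 ± 1.97 CPM).

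The weight of each class within collagen transcripts was read from the authors' FPKM, which divide by gene length. Col18a1 made up 76.3 to 81.0% of the summed FPKM of all 44 genes in WT and 27 to 39.3% in 0d. Fibrillar genes made up 7.42 to 10.6% in WT and 32.3 to 43.3% in 0d, and type IV 4.06 to 6.21% and 14.9 to 16.6%. The groups did not overlap in any of these shares. In 7d and 21d the share of Col18a1 ran from 42.8 to 83.7% and from 42.1 to 85.9%, and in 50d from 62 to 72%. In FPKM, Col18a1 led each group, at 229 ± 26.4 in WT and 127 ± 7.97 in 0d, followed in 0d by Col3a1 (57.5 ± 15.8), Col1a1 (46.6 ± 17.4) and Col4a1 (37.5 ± 5.5; SD, n = 3). In the older set its share was 82.1 to 85.2% in adjacent tissue, 42.9 to 60.6% in tumors and 45.6 to 70.6% in recipient tumors.

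**Figure D4:**
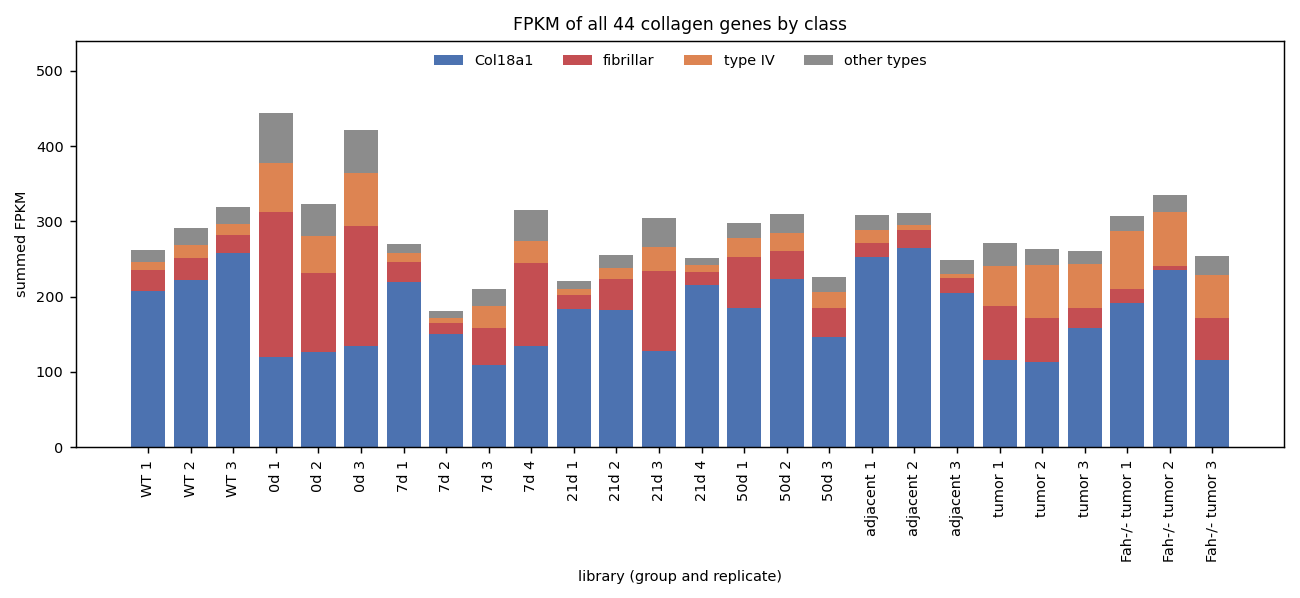
Summed FPKM of all 44 collagen genes in each library, stacked as Col18a1, fibrillar, type IV and other types. Col18a1 takes 76.3 to 81.0% of the bar in WT and 27 to 39.3% in 0d, and type IV takes 19.5 to 26.4% in tumors and 1.92 to 5.29% in adjacent tissue.

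Chains that assemble in a fixed ratio were compared within libraries. Type I collagen is built from 2 chains of Col1a1 and 1 of Col1a2, and the FPKM ratio of these genes was 1.08 ± 0.252 in WT, 1.47 ± 0.129 in 0d, 1.49 ± 0.401 in 7d, 1.56 ± 0.184 in 21d and 1.68 ± 0.270 in 50d (SD, n = 3, and n = 4 in 7d and 21d). In the older set it was 1.27 ± 0.484 in adjacent tissue, 1.99 ± 0.0772 in tumors and 1.97 ± 0.0689 in recipient tumors (n = 3 each). The common type IV molecule also has 2 chains of Col4a1 and 1 of Col4a2, and that ratio was 1.21 ± 0.173 in WT, 1.65 ± 0.143 in 0d, 2.13 ± 1.13 in 7d (n = 4), 1.77 ± 0.185 in 21d (n = 4) and 2.10 ± 0.115 in 50d. In adjacent tissue it was 1.55 ± 0.481, in tumors 2.07 ± 0.368 and in recipient tumors 1.66 ± 0.0881. In 2-sided exact permutation tests of both ratios over 9 comparisons, the smallest p was 0.1, the smallest that 3 against 3 libraries allow, and the smallest adjusted p over the 18 tests was 0.45. In 7d, replicate 3 held 1427 counts of Col4a1 and 370 of Col4a2, a ratio of 3.73, while the other 3 libraries lay between 1.21 and 2.09.

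In tumors of 10 months, the type IV pair rose against adjacent tissue and Col27a1 fell. Of 24 tested collagens 2 rose and 1 fell, against 5.29% and 4.98% of all 13187 genes. Col4a1 was 70.4, 25.4 and 23.3 CPM in adjacent tissue and 191, 319 and 281 CPM in tumors (2.73 ± 0.48, adjusted p = 0.011; 3.42 without adjacent replicate 1). Col4a2 was 34.2, 23.7 and 14.1 CPM in adjacent tissue and 108, 151 and 111 CPM in tumors (2.36 ± 0.39, adjusted p = 0.00839). The groups of both genes were far apart. Col4a3 was also higher in each tumor (3.13, 3.14 and 4.62 CPM) than in adjacent tissue (1.76, 0.114 and 1.14 CPM), without passing the test (1.82 ± 1.17, adjusted p = 0.348).

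Col27a1 (gene ID 373864, chromosome 4, 63214009 to 63334991), a fibrillar collagen known best from cartilage, was 37.5, 50.4 and 29.0 CPM in adjacent tissue and 0.677, 2.33 and 2.41 CPM in tumors (-4.44 ± 0.51, adjusted p = 0.00271). It was the 1 fibrillar gene called. In FPKM it stood at 4.51 ± 0.863 in adjacent tissue, 0.23 ± 0.113 in tumors and 0.13 ± 0.0781 in recipient tumors, and at means between 1.11 and 1.86 in the young groups.

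None of the other 7 fibrillar genes was called by edgeR, and 1 of them, Col1a1, had an unadjusted p under 0.05. Col1a1 was 11.7, 40.6 and 21.3 CPM in adjacent tissue and 126, 121 and 58.9 CPM in tumors, with no overlap (2.06 ± 0.80, adjusted p = 0.132). Col1a2 was 16.4, 34.2 and 13.3 against 71.7, 64.2 and 32.2 CPM, and Col3a1 was 20.3, 29.6 and 25.4 against 97.9, 84.6 and 23.9 CPM, both with overlap and with tumor replicate 3 the lowest tumor (adjusted p = 0.262 and 0.346). Col5a1 (-0.04 ± 0.46), Col11a2 (0.01 ± 0.55) and Col5a2 (0.23 ± 0.85) had changes near 0, and Col5a3 had 0.92 ± 0.64. Among the other types, 0 of 12 were called by edgeR and 4 had an unadjusted p under 0.05, as had 27.9% of all genes. Of these, Col12a1 was 7.11, 11.9 and 5.13 against 1.37, 1.25 and 3.93 CPM (1.87 ± 0.55, adjusted p = 0.0606), and Col18a1 was 545, 657 and 908 against 1426, 1874 and 1208 CPM (-1.10 ± 0.42, adjusted p = 0.125), each with separate groups. DESeq2 called 4 collagens higher and 3 lower, adding Col1a1, Col12a1, Col13a1 and Col18a1, where 9.53% of all genes were called higher and 8.61% lower.

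Without tumor replicate 3 and adjacent replicate 2, which held Y-linked transcripts, 0 collagens were called higher or lower between tumor and adjacent tissue. With 2 libraries a group the changes were 2.43 for Col4a1, 2.41 for Col4a2 and -4.49 for Col27a1 (adjusted p = 0.111, 0.0927 and 0.0534). For the marker lists that follow, 5.29% of all genes were called higher in tumors and 4.98% lower. Stellate markers summed to 89.2 to 129 CPM in tumors and 122 to 129 in adjacent tissue, with 1 of 11 called higher and 2 lower. Markers of other endothelium summed to 218, 288 and 245 CPM in tumor replicates 1, 2 and 3 and to 289, 124 and 136 in those of adjacent tissue, with 1 of 6 higher. Adjacent replicate 1, the highest there, also had the highest Col4a1 of the adjacent libraries. Hepatocyte markers summed to 29539 to 107074 and 95105 to 120799 CPM, with 0 of 8 called by edgeR and 2 at an unadjusted p under 0.05, as were 27.9% of all genes. Portal fibroblast markers summed to 51.9 to 60.9 and 14.6 to 29.9 CPM, with 2 of 7 tested higher and 1 lower, and Gli1 was at 0 in the tumors. The part of these cells in the collagen result was not tested.

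**Figure D5:**
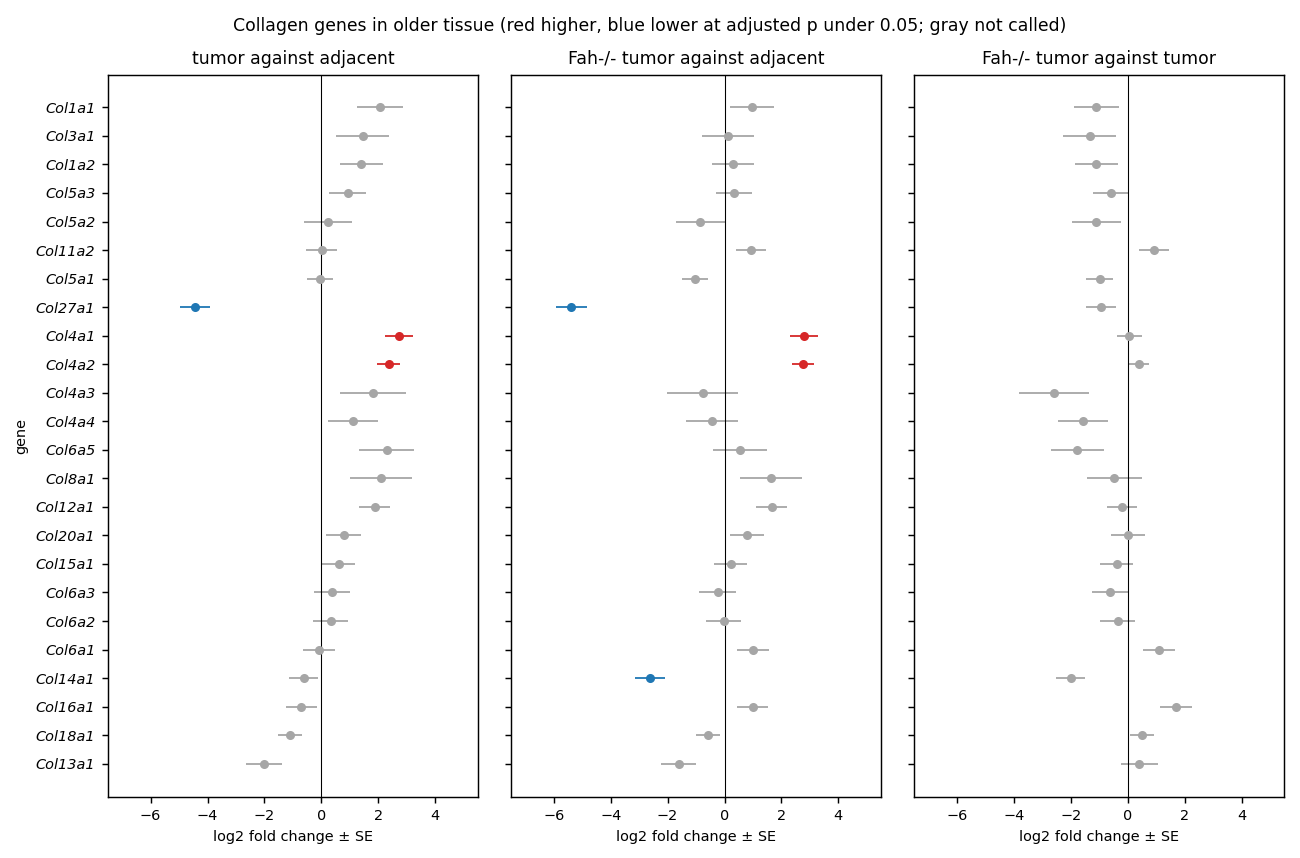
Log2 fold changes with SE (horizontal bars) of the 24 tested collagen genes in the 3 comparisons of older tissue, ordered by class. Red and blue points passed an adjusted p of 0.05. Col4a1, at 2.73 and 2.79, and Col4a2, at 2.36 and 2.76, are red and Col27a1, at -4.44 and -5.39, is blue against adjacent tissue, and no point is colored between the tumor groups.

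Recipient tumors shared the adjacent libraries as their reference, so this comparison is not independent of the one above. Of 24 tested collagens 2 rose and 2 fell, against 8.19% and 7.08% of all genes. Col4a1 was 345, 283 and 198 CPM in recipient tumors (2.79 ± 0.48, adjusted p = 0.00745; 3.47 without adjacent replicate 1) and Col4a2 was 208, 170 and 109 CPM (2.76 ± 0.39, adjusted p = 0.00405). Both lay above all adjacent libraries. Col27a1 was 0.709, 0.636 and 1.38 CPM (-5.39 ± 0.54, adjusted p = 0.00153). Col14a1 was 5.07, 2.36 and 10.7 CPM in recipient tumors and 43.5, 31.9 and 37.2 in adjacent tissue (-2.63 ± 0.53, adjusted p = 0.0131; -3.35 without recipient tumor replicate 3). Without the adjacent library that held Y-linked transcripts and tumor replicate 3, the Col4a1 call ended (2.56, adjusted p = 0.0601) and the other 3 held. Stellate markers summed to 29.3 to 83.0 CPM in recipient tumors with 3 of 11 lower, and their part was not tested.

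Between recipient tumors and Hdac3-/- tumors 0 of 24 collagens and 0% of all genes were called by edgeR. Of the collagens 2 had an unadjusted p under 0.05, as had 6.92% of all genes, which is near the same share, and DESeq2 called 0 (0.243% of all genes higher and 0.091% lower). Col14a1 (-2.01 ± 0.52, adjusted p = 0.671) and Col16a1 (1.69 ± 0.56, adjusted p = 0.671) had the largest ratio of change to SE. A missed threshold with 3 libraries a group does not show that the tumors were alike.

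The recipient tumors differed among themselves in fibrillar genes. Col1a1 was 40.4, 6.64 and 95.5 CPM, Col1a2 23.3, 3.64 and 51.4, and Col3a1 11, 2.64 and 67.9 in replicates 1, 2 and 3. Replicate 2 was the lowest of the 3 in 15 of 27 genes, and its stellate markers were also lowest, at 29.3 CPM. Its Col4a1 and Col4a2, at 283 and 170 CPM, lay between those of the other replicates. Col6a1 was 61.8 CPM in that library against 15.1 and 17.3 in the others, while Col6a2 was 2.82 against 15 and 13.5, so that the FPKM ratio of Col6a1 to Col6a2 was 20.5 there. In the other 25 libraries this ratio ran from 0.834 to 1.59. Col4a5 was 5.64 CPM in the same library against 0.608 and 0.163.

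The related lists in tumors held few calls. Against adjacent tissue, 2 synthesis and processing genes rose and 1 fell of 27 tested in tumors, close to the 5.29% and 4.98% of all genes. In recipient tumors 5 rose and 2 fell, beside 8.19% and 7.08% of all genes. Crtap, part of the prolyl 3-hydroxylase complex, was 26.4 ± 6.02 against 8.53 ± 2.13 CPM and Loxl4 11.5 ± 6.74 against 1.23 ± 0.386 CPM in tumors, while Colgalt2, a collagen galactosyltransferase, was 0.214 ± 0.119 against 4 ± 1.9 CPM (SD, n = 3 each). Colgalt2 was as low in recipient tumors (0.206 ± 0.117 CPM). It thus passed the filter through adjacent tissue alone, and its call gives no separate support. Of 14 other basement membrane genes 2 rose and 1 fell in tumors. Nid1 was 172 ± 78.1 against 12.8 ± 8.40 CPM and Lamc1, the common laminin gamma chain, 75.5 ± 24.1 against 16.8 ± 3.24 CPM, while Lama1 was 1.27 ± 0.705 against 5.62 ± 1.37 CPM. The receptor Ddr1 rose in tumors (62.4 ± 11.6 against 9.03 ± 2.54 CPM) and in recipient tumors (70.3 ± 17.6 CPM). With library totals in place of TMM, the median of all genes was 0.20 for tumor and 0.26 for recipient tumor against adjacent tissue, and the share of higher calls went from 51.5 to 65.2% and from 53.6 to 70.5%.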

How the data were processed

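Per the labels' protocols, RNA was extracted with TRIzol and libraries were made with a TruSeq kit. The submitters' processing notes name HISAT, Bowtie2 and mm10, with no role given, and none of these notes states whether counting used strand. The deposited files hold, per the file headers, an expected count and an FPKM for each gene in each of 26 libraries. A gene that a file does not list was taken as 0. Of the listed expected counts, 20.1 to 21.8% were not whole, and all were rounded to whole numbers. Of 19638 gene IDs 19573 matched an Entrez ID, 11 a RefSeq accession and 54 none, and all 44 collagen genes matched.

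edgeR 4.0.16 (R 4.3.3) was run with filterByExpr, TMM scaling and the quasi-likelihood F-test, in 1 fit of 17 young libraries (13617 genes) and 1 of 9 older libraries (13187 genes). p-values were adjusted by Benjamini-Hochberg over all genes of a fit, with 0.05 as the threshold. The SE is the log2 fold change divided by the root of F. The procedure was also run on counts simulated with the spread of the fits themselves. Fewer genes were changed there than were called in 0d against WT or in tumors, so that run gives no support to the calls. The alternatives were DESeq2 1.42.0, its size factors, library totals, no filter, a replicate block, each library left out and, in older tissue, no library with Y-linked transcripts. Comparisons between genes used the FPKM as the authors deposited them. Tables and plots used Python 3.11.15, numpy 2.4.6, pandas 2.3.3 and matplotlib 3.10.9. No 2 libraries agreed within sampling noise, with chi-square per degree of freedom from 7.25 to 271.38 between replicates.

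A collagen gene was named where its group mean reached 1 CPM anywhere, and of each related list up to 4 genes with the smallest adjusted p in a comparison could be named. Members were set by gene symbol alone, but that rule and the lists were chosen with earlier results of these data known. The related and marker lists were stellate cell, portal fibroblast, cholangiocyte, sinusoidal and other endothelium, macrophage, hepatocyte and Y-linked markers, and genes of collagen synthesis, breakdown, receptors and other basement membrane proteins. The floor used for Col4a6 covers counting error only.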

Additional observations from a re-analysis of the deposited data

Results flagged for a closer look

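In groups of 4 libraries, 54 sets of values (27 genes in 7d and 21d) were examined for a library far from the other 3, and 4 passed Dixon's 95% critical value of 0.829. Chance flags about 1 in 20 such sets. All 4 were in 21d. Col14a1, a collagen of the fibril surface, was 76.3 CPM in replicate 3, with the nearest library at 25.1. Col13a1, a membrane-spanning collagen, was 4.96 CPM in replicate 3, with the nearest at 1.83. Col4a4 was 2.48 CPM in replicate 3, with the nearest at 0.406. Col20a1 was 0.962 CPM in replicate 4, the lowest, with the nearest at 1.91.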

How the results depend on the processing

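None of the 66 gene calls reversed under any alternative run. Calls were lost for 0 of 66 with DESeq2, 1 with DESeq2's size factors, 7 with library totals, 0 without a filter, 4 with the replicate block, and in 167 of 1065 refits that left out 1 library. Leaving out 1 library gave 8 to 17 collagens higher and 1 to 1 lower for 0d against WT, 0 to 1 and 7 to 16 for 7d against 0d, 0 to 2 and 9 to 17 for 21d, 1 to 3 and 1 to 12 for 50d, 0 to 1 and 0 to 0 for 50d against 7d, 2 to 4 and 1 to 1 for tumor against adjacent tissue, and 2 to 3 and 2 to 4 for recipient tumor against adjacent tissue. Without a filter Col22a1 was added to those higher in 0d than in WT (0, 1 and 0 counts in WT, 8, 1 and 14 in 0d), 2 collagens were lower in 0d than in WT, adding Col17a1 (5, 13 and 1 counts in WT, 0, 1 and 0 in 0d), and 2 were higher in 21d than in 0d, adding Col25a1 (0, 1 and 0 counts in 0d, 8, 9, 0 and 6 in 21d). DESeq2 called 1 higher in 7d, and 4 higher and 3 lower in tumors. Library totals left 8 lower in 7d, where 1972 of all 13617 genes were lower. Without the Y-linked libraries 0 were higher and 0 lower in tumors, and 1 was higher in recipient tumors against adjacent tissue. That setting leaves 2 tumor and 2 adjacent libraries, and the cause of the other changes was not tested. Same-numbered libraries had correlations of deviations from -0.29 to 0.38, so the numbers were not taken as pairs. With the replicate block 0 collagens were higher in 50d than in 7d (Col8a1 2.15, adjusted p = 0.0622), and the calls of Col3a1 (0.0549) and Col15a1 (0.0711) in 7d and Col6a1 (0.0568) in 50d were lost. Genes under about 1 CPM, near 10 counts a library, are limited by depth.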
